A study of Rattus norvegicus with 2 samples.

Results

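Enzymes that modify histones and DNA, and the proteins that bind those marks, are among the genes whose transcripts form circular RNAs (circRNAs). A circRNA is a ring of RNA, made when the end of an exon is spliced back to the start of the same or an earlier exon. CircRNAs of these genes were examined in a bone cancer pain library and a control library. They were taken as the entries whose single host gene symbol belongs to the KDM, SETD, SUV, EZH, EHMT, KAT, HDAC, SIRT, PHF, PRDM, PRMT, NCOA, MLL, KMT2, NSD, WHSC1, TET or DNMT families, or is EP300, CREBBP, SUZ12, EED, ASH1L, JARID2 or MBTD1. This gave 365 circRNAs of 85 host genes, out of 17260 circRNAs and 4993 single host genes.

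Per the labels, rats of the bone cancer pain group received live Walker256 cells, a rat mammary carcinoma line that had been grown in ascites, in the marrow cavity of the tibia. The control rats received Walker256 cells that had been boiled for 20 minutes, with the same surgery. Each group had 3 SD rats, killed 21 days after surgery, and is represented by 1 library. The labels do not say whether the RNA of the 3 rats was pooled, and they name the source both as cancer cells and as spinal cord cells. No genotype, age or drug is given, and the cancer cells were injected in both groups, alive in one and boiled in the other.

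With 1 library per group there was no replicate and no test between conditions. All differences below are between these 2 libraries, and every interval is an exact 95% interval that covers counting error only. A ratio is a share of circular junction reads in bone cancer pain, divided by the same share in control. In RNA from a mixture of cells, fewer cells of a type and less RNA per cell cannot be told apart. Reads across a circular junction measure neither the linear mRNA nor the protein of the host gene.

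The bone cancer pain library held 151685 circular junction reads and the control library 159941. The identifiers in the table are human, as are the positions, whose genome build the table does not name. Of the 85 host symbols, 75 matched a rat symbol and 8 a rat synonym in the RefSeq table of GRCr8, and 5 of these 83 (6.02%) lay on the chromosome number of the rat gene, against 277 of 4621 (5.99%) over all matched hosts. Of 32 markers of spinal cord neurons, oligodendrocytes, astrocytes and microglia, 1 had a circRNA, the myelin gene MBP, with 3 bone cancer pain and 2 control reads. The groups are therefore named as the libraries so labelled, and symbols and positions are those of the table.

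Chromatin marks are placed by writers, removed by erasers and bound by readers. Writers include the methyltransferases and acetyltransferases that act on histone tails and the DNA methyltransferases. Erasers include lysine demethylases, histone deacetylases, sirtuins and the TET enzymes, which oxidise methylated cytosine. Readers hold domains such as PHD fingers, YEATS, MBT or Tudor domains that bind a modified or an unmodified histone tail. The same enzymes act in nearly all cell types, in neurons and in tumour cells among them. The symbols were sorted into 35 writers, 23 erasers, 16 readers and 11 other genes. Subunits of polycomb repressive complex 2 were counted with the writers, and the demethylases PHF2 and PHF8 with the erasers. The other genes are nuclear receptor coactivators, PRDM zinc finger factors, the adhesion protein MLLT4 (afadin) and the antisense RNA SETD5-AS1.

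Writers carried most of the reads, and their summed share was larger in the bone cancer pain library. The 35 writer genes had 2260 bone cancer pain reads, or 1.49% of the library (1.43 to 1.55), and 2028 control reads, or 1.27% (1.21 to 1.32), a ratio of 1.18 (1.11 to 1.25). The 23 eraser genes had 529 bone cancer pain reads (0.349%, 0.320 to 0.380) and 600 control reads (0.375%, 0.346 to 0.406), a ratio of 0.930 (0.826 to 1.05). The 16 reader genes had 317 bone cancer pain reads (0.209%, 0.187 to 0.233) and 375 control reads (0.234%, 0.211 to 0.259), a ratio of 0.891 (0.765 to 1.04). The intervals of erasers and readers included 1, and that of the writers lay above 1. Over all 85 genes, 3265 bone cancer pain reads (2.15%) and 3135 control reads (1.96%) gave a ratio of 1.10 (1.05 to 1.15). Without WHSC1, the gene with the most reads, the ratio was 1.13 for writers and 1.06 for all genes. The 11 other genes had 159 and 132 reads in these libraries (1.27, 1.00 to 1.61), also a larger share in bone cancer pain.

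**Figure D1:**
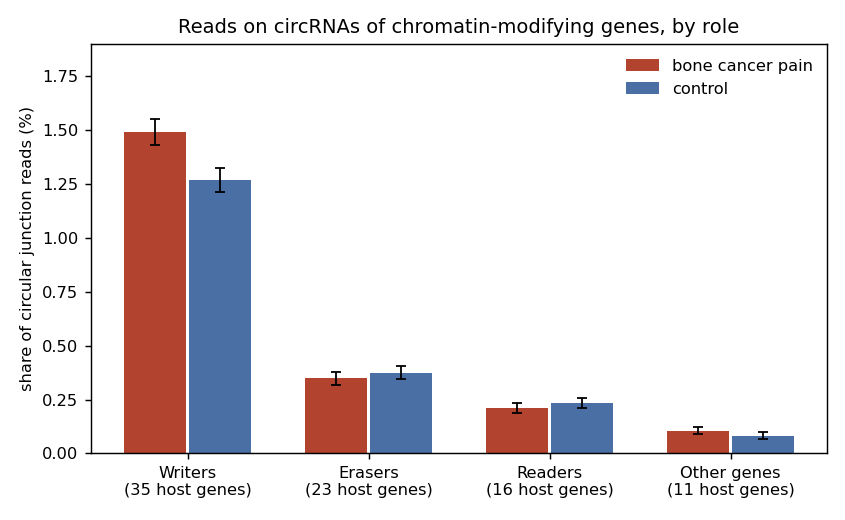
Share of each library's circular junction reads (%, y axis) on circRNAs of writers, erasers, readers and other genes, with bars for the bone cancer pain library and the control library and exact binomial 95% intervals. The writer bars stand at 1.49% in bone cancer pain and 1.27% in control, and the intervals of the eraser and reader pairs overlap.

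Calls were made by size. A host gene with 10 or more reads over both libraries was called at a ratio of 2 or more, or 0.5 or less, with 0.5 reads added to each library. Of the 85 genes, 67 had 10 or more reads, and 14 were higher, 10 lower and 43 between. The 24 called genes were 35.8% of the 67, against 27.5% of all 3038 host genes with as many reads (13.3% higher and 14.2% lower). The median log2 ratio of the 67 genes was 0.16, against -0.03 over all host genes. Requiring an interval that excludes 1 as well left 9 higher and 5 lower, 14 of 67, against 18.7% of all host genes.

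The roles differed in how their genes were spread. Among 26 writers with 10 or more reads, 5 were higher, 1 was lower and 20 lay between. Their median log2 ratio was 0.19, and 19 of 26 were above 0. The 21 erasers split into 7 higher, 7 lower and 7 between, and their median was -0.35. Of the 7 lower, SIRT1, KDM2B, KDM2A and PHF8 had no circRNA listed in both libraries and are given no ratio. SIRT1 and KDM2B were not listed in bone cancer pain at all, so the added reads set their values. Of 12 readers, 1 was higher and 2 were lower, and the median of the group was -0.28. Without the leading circRNA of each gene, the medians turned to 0.162 for erasers and 0.0163 for readers, and the eraser calls fell to 3 higher and 1 lower. Of the 8 other genes with 10 or more reads, 1 was higher and 7 between. The 14 called erasers were 66.7% of their group, against the 27.5% of all host genes. Of the 21 erasers, 16 had fewer than 50 reads. In that class 13 of 16 erasers and 6 of 12 writers were called, against 39.9% of 1755 host genes. With 50 or more reads, 1 of 5 erasers and 0 of 14 writers were called, against 10.4% of 1283 host genes. The difference between roles was not tested, and neither was the part of depth in it.

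**Figure D2:**
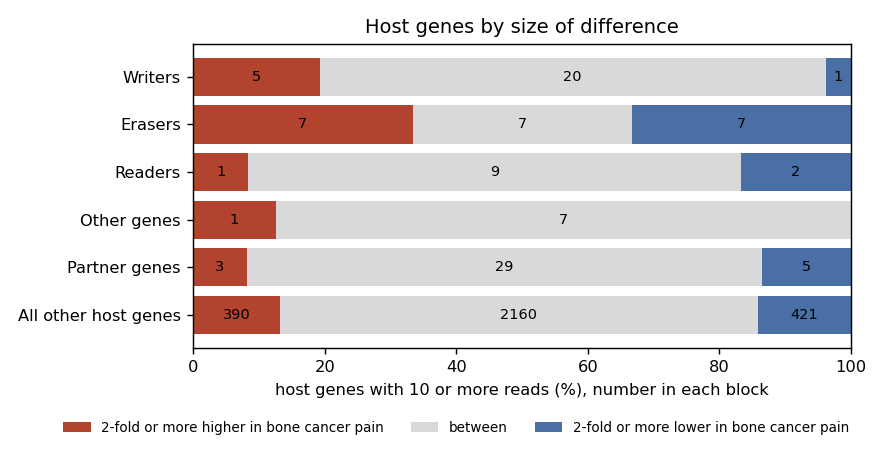
Host genes with 10 or more reads (% of each group, x axis) at least 2-fold higher, between, or at least 2-fold lower in bone cancer pain than in control, with the number of genes printed in each block. Erasers split into 7 higher, 7 between and 7 lower, while 20 of 26 writers lie between.

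Among the writers, the H3K36 methyltransferase WHSC1, also known as NSD2, had the most reads. It had 406 bone cancer pain and 299 control reads over 19 circRNAs (ratio 1.43, 1.23 to 1.67), so its interval lay above 1 but the ratio did not reach 2. Next came the acetyltransferase CREBBP with 258 bone cancer pain and 306 control reads (0.889, 0.750 to 1.05). SETD3, a methyltransferase known for modifying actin, had 267 bone cancer pain and 246 control reads (1.14, 0.959 to 1.37). EZH2, the catalytic subunit of polycomb repressive complex 2, had 230 and 212 reads in these libraries (1.14, 0.945 to 1.39). These 4 genes held 51.4% of writer reads in bone cancer pain and 52.4% in control, and no interval of the last 3 excluded 1.

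The other H3K36 methyltransferases were less alike. SETD2, which methylates H3K36 along transcribed genes, had 225 bone cancer pain and 213 control reads (1.11, 0.919 to 1.35). NSD1 had 42 reads in each library (1.05, 0.671 to 1.66). WHSC1L1, also known as NSD3, had 9 bone cancer pain reads and 2 control reads (4.74, 0.982 to 45.1). The 4 genes together had 682 bone cancer pain and 556 control reads (1.29, 1.15 to 1.45), most of them on WHSC1 and SETD2.

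In the trithorax group and the H3K9 methyltransferases, circRNAs per gene ranged from 1 (SETD1A and SUV39H2) to 21 (EHMT1). The H3K4 methyltransferase KMT2C had 122 bone cancer pain and 117 control reads (1.10, 0.846 to 1.43). KMT2E had 61 and 57 in these libraries (1.13, 0.773 to 1.65), and ASH1L had 131 and 106 (1.30, 1.00 to 1.70). EHMT1, a methyltransferase of H3K9, had 113 bone cancer pain and 108 control reads (1.10, 0.840 to 1.45) over 21 circRNAs, the most of any of the 85 genes. PRDM2, a PR domain methyltransferase of H3K9, had 103 and 75 (1.45, 1.07 to 1.98). SETDB1, which methylates H3K9 at silenced repeats, had 12 bone cancer pain reads and 2 control reads (6.33, 1.41 to 58.2) and was the highest writer with a ratio among those with 10 or more reads. At 2 control reads the interval spans more than an order of magnitude.

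All 3 DNA methyltransferases had circRNAs. DNMT1, which copies methylation onto new DNA strands, had 69 bone cancer pain and 39 control reads over 13 circRNAs (1.87, 1.24 to 2.84). DNMT3A and DNMT3B place new methylation. DNMT3A had 8 bone cancer pain and 3 control reads, with no circRNA listed in both libraries, so no ratio is given. DNMT3B had 12 bone cancer pain and 15 control reads (0.844, 0.361 to 1.93). Summed, the DNA methyltransferases had 89 and 57 reads in these libraries (1.65, 1.17 to 2.34), most of them on DNMT1.

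Of polycomb repressive complex 2, which methylates H3K27, the scaffold subunit SUZ12 had 52 bone cancer pain and 40 control reads (1.37, 0.890 to 2.12). EED, which binds the mark, had 18 and 11 (1.73, 0.772 to 4.04). The alternative catalytic subunit EZH1 and the accessory subunit JARID2 were listed in the control library only, with 4 and 6 reads. Of the 5 genes counted here, none of the 3 with 10 or more reads, EZH2 included, was called. The sum of the 5 was 300 bone cancer pain and 273 control reads (1.16, 0.980 to 1.37). Further subunits, counted below with the partner genes, are not in this sum. Of them, AEBP2 had 78 bone cancer pain and 113 control reads (0.728, 0.538 to 0.980). MTF2 had 6 and 5 (1.27, 0.322 to 5.24), and both were between. RBBP7 had 3 and 12 (0.264, 0.0477 to 0.977) and was called lower.

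Acetyltransferases other than CREBBP were higher or between. EP300, the paralogue of CREBBP, had 34 bone cancer pain and 27 control reads over 14 circRNAs (1.33, 0.778 to 2.29). KAT6A, of the MYST family, had 20 and 9 (2.34, 1.02 to 5.84) and was the highest writer among those with 20 or more reads. Its paralogue KAT6B had 15 and 3 (5.27, 1.49 to 28.4). Both MYST genes were called. Without its leading circRNA, KAT6A had 10 bone cancer pain and 7 control reads (1.51, 0.518 to 4.66) and was not called.

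Of the writers with 20 or more reads, the lowest was SUV420H1, a methyltransferase of H4K20, with 7 bone cancer pain and 13 control reads (0.568, 0.192 to 1.53). The arginine methyltransferases PRMT5 (9 and 15 reads in bone cancer pain and control, 0.633, 0.244 to 1.54) and PRMT2 (13 and 17, 0.806, 0.360 to 1.76) followed. With 10 to 19 reads, the H3K4 methyltransferase KMT2A had 5 bone cancer pain and 10 control reads (0.527, 0.141 to 1.69). The SET domain gene SETD5, with 5 and 14 (0.377, 0.106 to 1.11), was the only one of the 35 writers called lower. It was at 0.879 without its leading circRNA. All 5 intervals included 1. Further writers that the family names do not take are counted with the partner genes below. Among those, CARM1 was called lower, and the interval of HAT1 lay above 1.

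**Figure D3:**
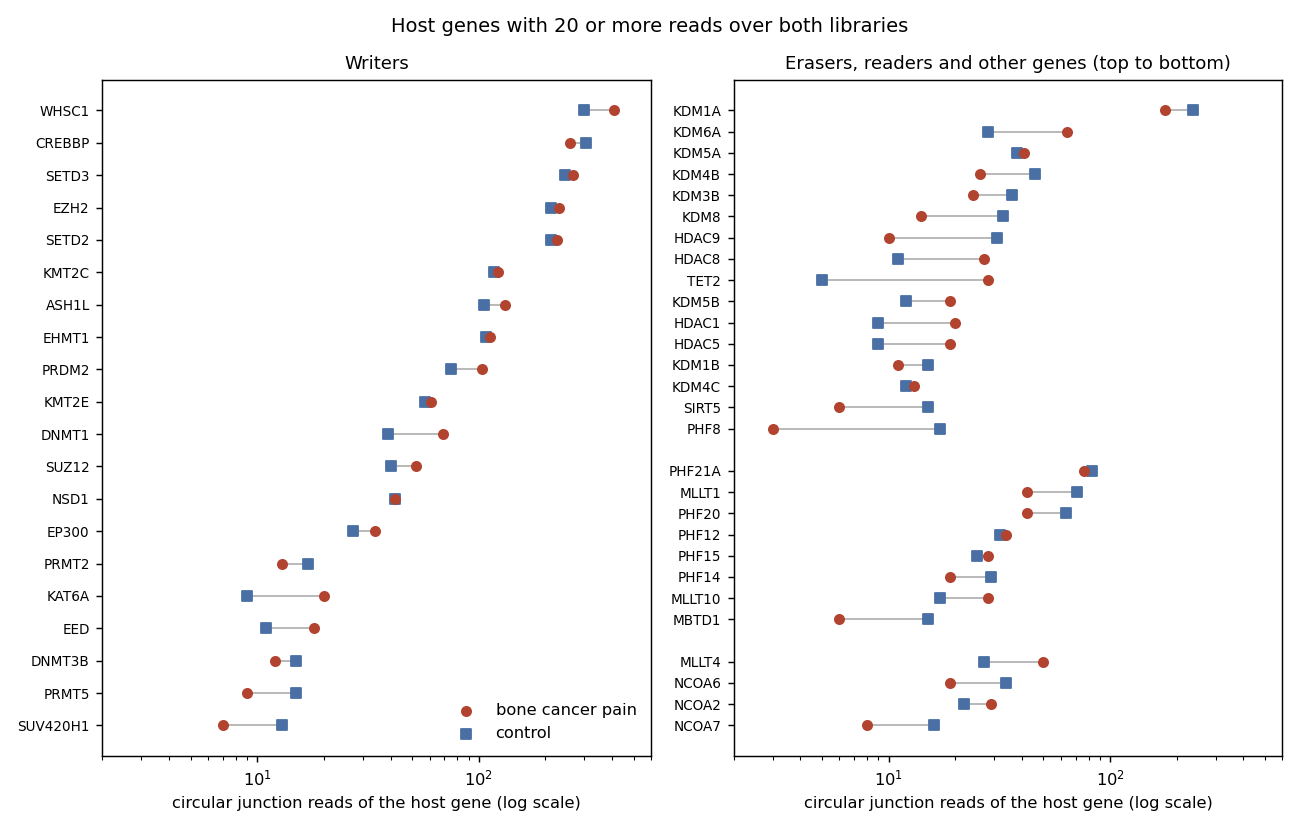
Circular junction reads (log scale, x axis) of host genes with 20 or more reads over both libraries, 1 of them not shown, as circles for bone cancer pain and squares for control. Writers such as WHSC1, at 406 bone cancer pain and 299 control reads, hold the most reads, and the widest gaps belong to erasers such as TET2 (28 and 5) and PHF8 (3 and 17).

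Among the erasers, the TET enzymes and the class I histone deacetylases were higher in bone cancer pain. TET2 had 28 bone cancer pain and 5 control reads, all on 1 circRNA (hsa_circ_0070562, chromosome 4, 106155054 to 106158508; ratio 5.90, 2.25 to 19.6). It was the highest ratio among the erasers. TET3 had 13 and 6, also on 1 circRNA (2.28, 0.810 to 7.33). Rows that also named small RNAs added 2 bone cancer pain reads and no control reads to TET2. HDAC1 had 20 bone cancer pain and 9 control reads (2.34, 1.02 to 5.84), and HDAC8 had 27 and 11 (2.59, 1.24 to 5.78). The only HDAC1 circRNA listed in both libraries had 17 and 9 (1.99, 0.840 to 5.07) and was not called. The HDAC1 call thus rested on 3 further reads of a circRNA listed in bone cancer pain only. Summed, the TET genes had 41 bone cancer pain and 11 control reads (3.93, 1.98 to 8.48), and the class I deacetylases had 47 and 20 (2.48, 1.44 to 4.41). Of these 4 genes, 3 had an interval above 1, and that of TET3 included 1.

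The class II deacetylases did not share a direction. HDAC5 had 19 bone cancer pain and 9 control reads (2.23, 0.960 to 5.59). HDAC9 had 10 and 31 (0.340, 0.149 to 0.712). Its lower level was seen on 2 of its 3 circRNAs, at 5 bone cancer pain and 19 control reads for hsa_circ_0007904 (chromosome 7, 18705836 to 18706099; 0.277, 0.0810 to 0.768) and at 2 and 9 for a junction without a circBase identifier (0.234, 0.0246 to 1.13). The remaining one, hsa_circ_0001680, had 3 reads in each library. HDAC4 had 2 control reads and was not listed in bone cancer pain.

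Both sirtuins, deacylases that use NAD, were called lower. SIRT1, a nuclear deacetylase, had 11 control reads on 1 junction and was not listed in bone cancer pain. The lowest listed value of either library was 2 reads, so an unlisted circRNA may still have had 1, and no fold is given. The mitochondrial SIRT5 had 6 bone cancer pain and 15 control reads (0.422, 0.134 to 1.15), an interval that included 1.

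The lysine demethylases lay on both sides. KDM1A, the demethylase of H3K4 also called LSD1, had the most reads of the erasers, 177 in bone cancer pain and 238 in control (0.784, 0.642 to 0.957). It held 33.5% of eraser reads in bone cancer pain and 39.7% in control. KDM6A, a demethylase of H3K27, had 64 bone cancer pain and 28 control reads (2.41, 1.52 to 3.90) and was the only one of 27 modifier genes with 50 or more reads that was called. With circRNAs that carry a circBase identifier only, its ratio was 1.70, which is no call. PHF2 had 11 and 2, on 1 circRNA (5.80, 1.27 to 53.8). KDM5A, a demethylase of H3K4, had 41 bone cancer pain and 38 control reads (1.14, 0.714 to 1.82), and its paralogue KDM5B had 19 and 12 (1.67, 0.769 to 3.77), both between.

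Of the demethylase genes, 4 were called lower. KDM8, a JmjC domain protein, had 14 bone cancer pain and 33 control reads (0.447, 0.221 to 0.859). PHF8 had 3 bone cancer pain and 17 control reads on separate junctions, of which 14 control reads were on hsa_circ_0009069 (chromosome X, 54013511 to 54014377), with none listed in bone cancer pain. The H3K36 demethylase KDM2A had 3 and 11, also with no shared circRNA, and KDM2B had 10 control reads over 3 circRNAs and was not listed in bone cancer pain. KDM4B, a demethylase of H3K9, had 26 bone cancer pain and 46 control reads (0.596, 0.354 to 0.985), and KDM3B had 24 and 36 (0.703, 0.401 to 1.21), both between. Over the 14 demethylase genes, 406 bone cancer pain and 501 control reads gave a ratio of 0.854 (0.748 to 0.976), with 2 of 13 called higher and 4 lower. KDM1A made up most of the difference in reads.

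**Figure D4:**
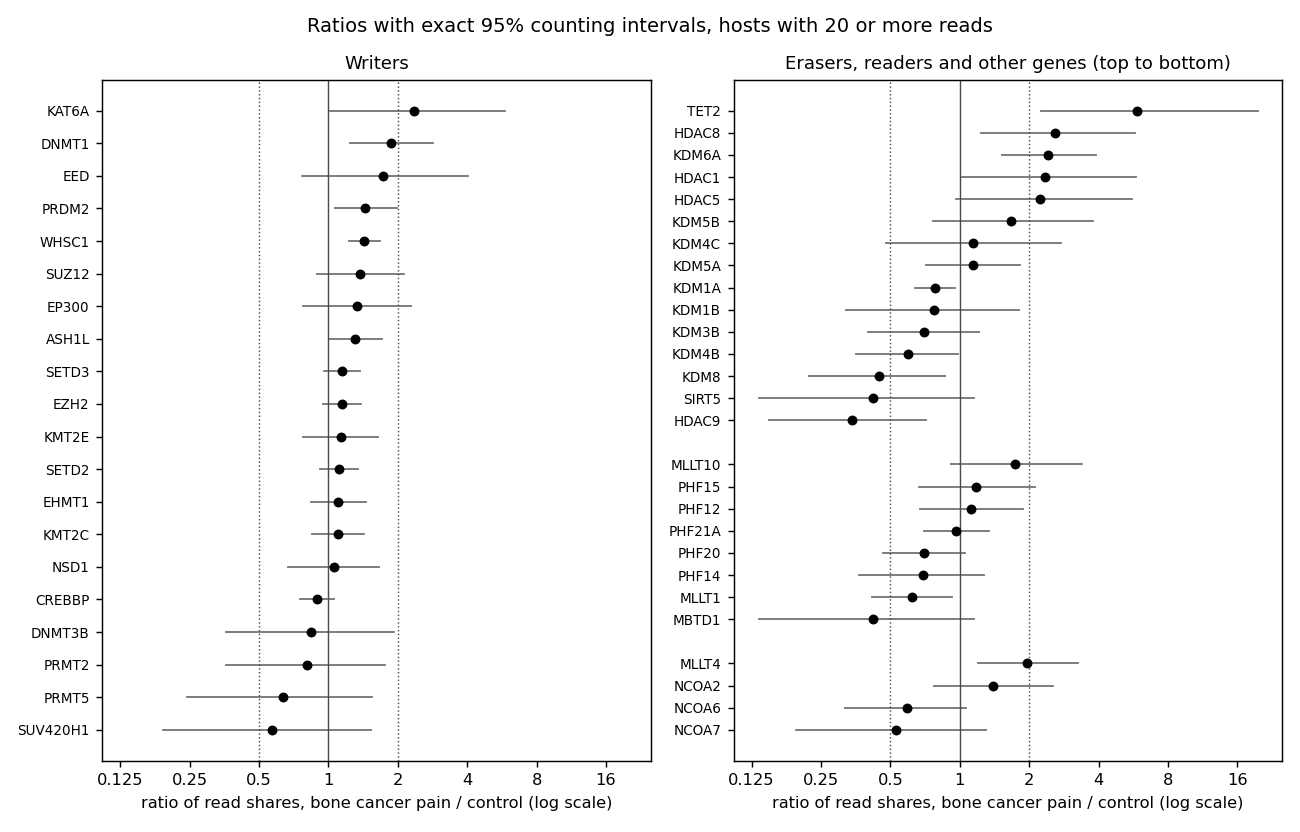
Ratio of read shares, bone cancer pain over control (log scale, x axis), with exact 95% counting intervals, for host genes with 20 or more reads and a circRNA listed in both libraries, 1 of them not shown. Solid and dotted lines mark ratios of 1, 2 and 0.5. Writers lie between 0.568 (SUV420H1) and 2.34 (KAT6A), while erasers lie between 0.340 (HDAC9) and 5.90 (TET2).

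Among the readers, PHF21A, which binds unmethylated H3K4 beside KDM1A, had the most reads, 76 in bone cancer pain and 83 in control (0.966, 0.698 to 1.33). MLLT1, a YEATS domain reader also known as ENL, had 42 bone cancer pain and 71 control reads (0.624, 0.415 to 0.926), the only reader whose interval excluded 1. PHF20, a Tudor domain protein, had 42 and 63 over 13 circRNAs (0.703, 0.464 to 1.06), and PHF12 had 34 and 32 (1.12, 0.671 to 1.88). The MBT domain protein MBTD1 had 6 bone cancer pain and 15 control reads (0.422, 0.134 to 1.15) and was called lower. MLLT3, the YEATS paralogue of MLLT1, had 5 and 13 (0.406, 0.113 to 1.21) and was the other reader called lower.

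MLLT10 had the highest ratio among readers with 20 or more reads, at 28 bone cancer pain and 17 control reads (1.74, 0.918 to 3.38). PHF15 had 28 and 25 (1.18, 0.664 to 2.11) and PHF14 19 and 29 (0.691, 0.366 to 1.27). PHF3 was called higher with 11 bone cancer pain and 4 control reads, on different junctions.

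Of the other genes, MLLT4 had 50 bone cancer pain and 27 control reads (1.95, 1.20 to 3.24), but with circBase identifiers only its ratio was 0.753. The coactivator NCOA1, a partner of nuclear receptors, had 13 and 2 (6.85, 1.55 to 62.6) and was the only one called. NCOA6 had 19 bone cancer pain and 34 control reads (0.589, 0.318 to 1.06), NCOA7 8 and 16 (0.527, 0.195 to 1.31), and NCOA2 29 and 22 (1.39, 0.771 to 2.54). SETD5-AS1 had 5 bone cancer pain and 8 control reads, and since the table gives no strand, its reads and those of SETD5 may not be fully separate.

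Most genes were seen in both libraries. Of the 85 genes, 6 were listed in bone cancer pain only and 11 in control only. The 6 were the arginine methyltransferases PRMT3 (8 reads) and PRMT10 (4), the readers PHF16 and PHF20L1 (3 each), and NCOA4 and PRDM15 (4 each). Those in control only included SUV39H2 (6 reads), SETD1A and PRMT7 (3 each) and KDM4A (3), beside the SIRT1, KDM2B, HDAC4, EZH1 and JARID2 given above. None of the 6 and 2 of the 11, SIRT1 and KDM2B, reached 10 reads. No such count over all host genes is given here, so these counts describe the list only. Among single circRNAs, 104 of the 365 were listed in bone cancer pain only and 90 in control only. For the other hosts these were 4139 and 4139 of 14743 circRNAs.

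At the level of single circRNAs, 126 of the 365 had 10 or more reads, and 239 (65.5%) had fewer. Of the 126, 27 were higher, 19 lower and 80 between. The 46 called compare with 34.3% of all 5415 circRNAs with as many reads (17.3% higher and 17.0% lower). By role, 16 of 71 writer circRNAs were higher and 8 lower, 7 of 29 eraser circRNAs were higher and 7 lower, and 2 of 18 reader circRNAs were higher and 4 lower.

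The circRNA with the most reads came from CREBBP (hsa_circ_0007637, chromosome 16, 3900298 to 3901010), with a span of 713 bp between its ends. It had 253 bone cancer pain and 287 control reads (0.930, 0.782 to 1.10), which was 98.1% and 93.8% of the reads of its gene. The single SETD3 circRNA (hsa_circ_0000567, chromosome 14, 99924616 to 99932150) was next. The leading EZH2 circRNA (hsa_circ_0006357, chromosome 7, 148543562 to 148544397) had 207 bone cancer pain and 184 control reads (1.19, 0.968 to 1.45). The leading KDM1A circRNA (hsa_circ_0009061, chromosome 1, 23356962 to 23377013) had 70 and 139 (0.531, 0.393 to 0.713), the lowest ratio among the 10 circRNAs with the most reads.

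Next came 2 circRNAs of WHSC1. They were hsa_circ_0002688 (chromosome 4, 1902353 to 1932497), with 104 bone cancer pain and 79 control reads (1.39, 1.03 to 1.88), and hsa_circ_0001387 (1902353 to 1936989), with 108 and 71 (1.60, 1.18 to 2.20). A SETD2 circRNA (hsa_circ_0001290) had 60 bone cancer pain and 79 control reads (0.801, 0.563 to 1.13), one of PHF21A (hsa_circ_0000296) 62 and 69 (0.947, 0.661 to 1.35), one of ASH1L (hsa_circ_0000137) 67 and 56 (1.26, 0.871 to 1.83), and one of KMT2C (hsa_circ_0001769) 58 and 49 (1.25, 0.839 to 1.86). All of these 10 circRNAs carried a circBase identifier and lay within 2-fold. Together they held 38.5% of the bone cancer pain reads and 40.2% of the control reads of the 85 genes.

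CircRNAs of the same gene could lie in different directions. Of 26 genes with at least 2 circRNAs of 10 or more reads, 20 had circRNAs both above and below a log2 ratio of 0, and 7 had 1 or more higher and 1 or more lower by 2-fold. These 7 were ASH1L, DNMT1, EHMT1, EP300, KMT2E, PHF21A and SETD2. All but PHF21A are writers. Among the 1090 other host genes with as many such circRNAs, 61.9% had circRNAs on both sides of 0 and 11.5% had opposite 2-fold calls, against 76.9% and 26.9% of the 26. The 26 genes averaged 3.69 circRNAs of 10 or more reads and the other hosts 3.08, and the difference was not tested. In 3 of the 7, ASH1L, EHMT1 and KMT2E, opposite calls also had intervals that excluded 1 on both sides. In the other 4 at least one side had intervals that included 1. No count with this interval rule is given for the other host genes. All circRNAs of a gene come from the same 2 libraries and are not replicates.

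In SETD2, 20 circRNAs were listed, all in bone cancer pain and 12 of them in control. A junction without a circBase identifier (chromosome 3, 47108560 to 47139571) had 21 bone cancer pain and 3 control reads (7.38, 2.20 to 38.6). In the same gene, hsa_circ_0005870 (47079156 to 47088111) had 22 and 45 (0.515, 0.295 to 0.877), and hsa_circ_0004692, with the same lower end, had 24 and 13 (1.95, 0.953 to 4.16). Both of these were between. The 1 SETD2 circRNA called lower was another, at a log2 ratio of -1.002. The 5 circRNAs that begin at 47079156 summed to 65 bone cancer pain and 62 control reads (1.11, 0.768 to 1.59). So opposite values on single junctions balanced in the sum.

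In EHMT1, hsa_circ_0001906 (chromosome 9, 140705913 to 140712590) had 11 bone cancer pain reads and was not listed in control. The 3 circRNAs that end at 140712590 had 21 bone cancer pain reads in all and none listed in control. The 4 circRNAs that end at 140652463 had 24 bone cancer pain and 45 control reads (0.562, 0.328 to 0.943). One of these, hsa_circ_0089727, was at 7 and 22 (0.336, 0.121 to 0.813). The 2 ends thus differed in direction within a gene whose sum was at 1.10.

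In ASH1L, hsa_circ_0003247 (chromosome 1, 155408118 to 155429689) had 44 bone cancer pain and 14 control reads (3.31, 1.78 to 6.55). The shorter hsa_circ_0000137, which shares its lower end, was at 1.26, as given above. Another circRNA, hsa_circ_0007608 (155340295 to 155340774), had 2 bone cancer pain and 13 control reads (0.162, 0.0178 to 0.717).

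In DNMT1, the 5 circRNAs that end at 10288043 on chromosome 19 had 36 bone cancer pain and 11 control reads (3.45, 1.72 to 7.52). They held 52.2% of the reads of the gene in bone cancer pain and 28.2% in control. Of these, hsa_circ_0049221 had 17 and 3 (5.98, 1.73 to 31.8). Another DNMT1 circRNA, hsa_circ_0049208, had 3 bone cancer pain and 7 control reads (0.452, 0.0754 to 1.98).

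In EP300, the 5 circRNAs that end at 41569788 on chromosome 22 had 18 bone cancer pain and 3 control reads (6.33, 1.85 to 33.5). The leading circRNA of the gene, hsa_circ_0003184, had 3 and 11 (0.288, 0.0515 to 1.09). None of the 5 has a circBase identifier, and with catalogued circRNAs only the EP300 ratio was 0.351, against 1.33 with all. In KMT2E, the 4 circRNAs that end at 104722244 on chromosome 7 had 23 bone cancer pain and 5 control reads (4.85, 1.804 to 16.3). Another KMT2E circRNA, hsa_circ_0081813, had 10 control reads and was not listed in bone cancer pain. Shared ends of other genes lay on both sides of 1. The 3 HDAC8 circRNAs that begin at 71681854 had 24 bone cancer pain and 7 control reads (3.62, 1.51 to 9.94). The 3 PRDM2 circRNAs that end at 14109326 had 29 and 11 (2.78, 1.35 to 6.17). The 3 PHF20 circRNAs that end at 34446303 had 5 bone cancer pain and 25 control reads (0.211, 0.0631 to 0.561). The 3 CREBBP circRNAs that end at 3795355 had 2 and 13 (0.162, 0.0178 to 0.717).

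In WHSC1, 7 of the 11 circRNAs with 10 or more reads had a log2 ratio above 0 and 4 were below. By 2-fold, 1 was higher and 0 lower. Its 8 circRNAs that begin at 1902353 on chromosome 4 had 347 bone cancer pain and 245 control reads (1.49, 1.26 to 1.77), which were 85.5% of the reads of the gene in bone cancer pain and 81.9% in control. Without its leading circRNA, the gene had 302 and 220 reads (1.45, 1.21 to 1.73). Among its circRNAs with 10 or more reads, the highest ratio was that of hsa_circ_0003112, at 24 bone cancer pain and 6 control reads (4.22, 1.68 to 12.6).

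KDM1A rested on its leading circRNA. The 3 circRNAs that begin at 23356962 on chromosome 1 had 35 bone cancer pain and 20 control reads, 70 and 139, and 34 and 42. Their ratios were 1.85 (1.04 to 3.37), 0.531 as given above, and 0.854 (0.527 to 1.37). Without the leading circRNA the gene had 107 bone cancer pain and 99 control reads (1.14, 0.859 to 1.51). Without the leading circRNA, the ratio also turned or moved by over 1.5 times in other genes. These included CREBBP (0.277), EED (6.85), EP300 (2.04), PHF15 (2.32), EZH2 (0.866), PHF12 (0.967) and PHF21A (1.05). Among them too were KMT2C (0.992), KDM3B (1.05), KDM1B (1.48), KDM4C (2.74) and KDM5B (1.05). In KDM8, hsa_circ_0038704 held all 33 control reads and 8 of the 14 from bone cancer pain (0.256, 0.102 to 0.564).

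**Figure D5:**
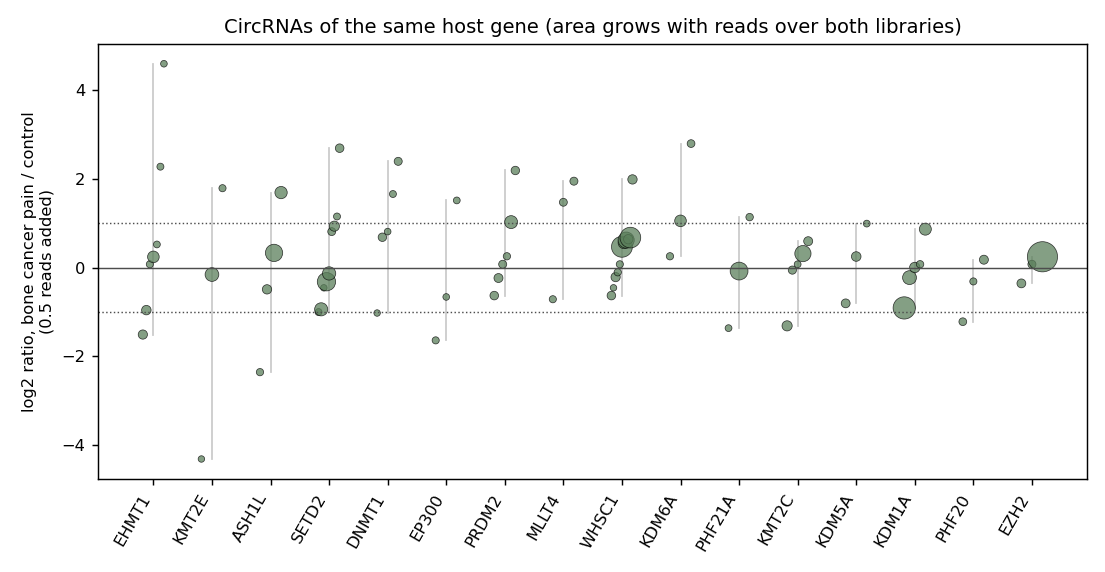
Log2 ratio of bone cancer pain over control with 0.5 reads added (y axis) for each circRNA with 10 or more reads, in the 16 genes with at least 3 such circRNAs. Point area grows with reads over both libraries and dotted lines mark 2-fold. The highest EHMT1 point and the lowest KMT2E point are circRNAs listed in 1 library only, placed by the added reads. Points of SETD2, ASH1L and EHMT1 lie on both sides of 0.

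Some features were not used to choose the genes. The 85 genes had 4.29 circRNAs each on average, against 3.00 for the 4908 other host genes, with 5.57 for writers, 3.48 for erasers and 3.38 for readers. Of the 365 circRNAs, 262 (71.8%) shared an end with another circRNA of the same gene, against 61.4% of the circRNAs of other hosts. A circBase identifier was carried by 67.7% of the 365, against 58.4% of the circRNAs of other hosts, and by 82.5% and 80.3% of these among circRNAs with 10 or more reads. Both libraries listed 46.8% of the 365 (41.6 to 52.1), against 43.9% (43.0 to 44.7). The median span was 6223 bp, against 5792 bp, with 5698 bp for writers, 5007.5 bp for erasers and 8378 bp for readers. None of these differences was tested, since circRNAs of 1 gene are not independent.

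Partner genes were taken from a list of 101 subunits of the same complexes, further writers and further readers that the family names above do not take. Of these, 49 had a circRNA and 37 had 10 or more reads, of which 3 were higher and 5 lower. These 8 were 21.6% of the 37, against the 27.5% of all host genes. The median log2 ratio of the 37 was -0.36. The 49 genes had 1360 bone cancer pain and 1509 control reads (0.950, 0.883 to 1.02). Among those with 20 or more reads, ratios at the high end included the polycomb subunit PCGF5 (17 and 8 reads, 2.24, 0.916 to 5.999), the acetyltransferase HAT1 (57 and 39, 1.54, 1.01 to 2.38) and the DNA glycosylase TDG (13 and 9, 1.52, 0.602 to 4.04), with the bone cancer pain reads given first.

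At the low end of the partners, the Sin3 complex subunit SAP130 had 5 bone cancer pain and 26 control reads (0.203, 0.0608 to 0.537). The arginine methyltransferase CARM1 had 11 and 39 (0.297, 0.137 to 0.592), the NuRD subunit GATAD2A 30 and 69 (0.458, 0.288 to 0.713), and YEATS2, a reader of acylated histones, 19 and 39 (0.514, 0.280 to 0.911). All 4 intervals lay below 1, and the first 3 passed 2-fold.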

How the data were processed

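RNA was depleted of ribosomal RNA and treated with 16 units of RNase R, which degrades linear RNA, for 15 minutes at 37 °C, and libraries were strand-marked, per the labels' protocols. CASAVA 1.8, BWA and build rn6 are named, with no role, per the submitters' processing notes; which program called the circRNAs, and with what threshold, is not stated there. The deposited values are headed TPM but were treated as RPM, scaled by the authors to each library's total of such reads, since in each library all values above the placeholder of 0.001 were whole multiples of a single step (100% within 0.01 reads). Dividing by the step gave reads, and the placeholder was taken as 0. The depth was 151685 and 159941 reads for bone cancer pain and control. PCR copies are not independent molecules, so intervals cover counting error only.

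Host sums use rows with 1 host symbol. A further 22 rows, with 51 bone cancer pain and 26 control reads, named a modifier gene beside other names and were left out. Ratios have exact conditional binomial (Clopper-Pearson) 95% intervals, and are given only where a circRNA was listed in both libraries. Because the identifiers are human, rows of chromosome Y and of X inactivation genes were dropped after the library totals were taken. Named hosts were the 4 highest, 4 lowest and 4 most abundant of each role with 20 or more reads, every TET, DNMT, HDAC, sirtuin and polycomb repressive complex 2 gene, EP300 and CREBBP, the 10 circRNAs with the most reads, and circRNAs of 1 gene that went in opposite directions. The rule also took circRNAs of 15 or more reads listed in 1 library only, of which there were none. Of the genes this rule takes, 1 host and 1 partner are not reported here by name, though sums and counts include them. Other named genes were chosen after their values were seen. The rule did not cover ends shared by several circRNAs, and those named were also chosen with their values known. The members and lists were chosen with earlier results of these data known. No sequence is printed, as no genome of the table's positions was used here. The ratio, interval and call rule were tested on simulated data. Software was Python 3.11.15, scipy 1.17.1 for the intervals, numpy 2.4.6 and pandas 2.3.3, and matplotlib 3.10.9 for the figures.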

Additional observations from a re-analysis of the deposited data

How the results depend on the processing

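No paired analysis was possible because each group has 1 library. The values below are for higher and lower calls unless stated, beside 14 and 10 genes, 27 and 19 circRNAs, 5 and 1 writers, 7 and 7 erasers, 1 and 2 readers and 3 and 5 partners. With a minimum of 20 reads there were 6 and 5 genes, 10 and 5 circRNAs, 1 and 0 writers, 4 lower erasers, 0 and 1 readers and 1 and 3 partners, since fewer features were considered. With a minimum of 5 reads there were 55 and 35 circRNAs and 3 lower writers. A ratio of 1.5 gave 43 and 37 circRNAs, 19 lower genes, 4 lower writers and 3 and 4 readers. Requiring the interval to exclude 1 as well left 9 lower circRNAs, 9 and 5 genes, 3 and 0 writers and 0 and 0 readers. Without the leading circRNA of each gene there were 7 and 3 genes, 2 and 2 writers, 3 and 1 erasers and 0 lower readers, and the medians of erasers and readers turned to 0.162 and 0.0163. With circBase identifiers only, 2 writers were lower and 0 readers higher, and the median over all genes turned to -0.0243. The ratio of all summed reads was 1.04 under median of ratios scaling, which shifts log2 ratios by 0.08, and the trimmed mean of ratios (TMM) moved them by -0.002. The cause of these changes was not tested beyond the fewer features considered. The writer ratio stayed between 1.11 and 1.18 over its 5 alternatives, the reader ratio between 0.845 and 0.893, and the eraser ratio between 0.859 and 1.03, above 1 without KDM1A. Counting rows that name 1 gene beside small RNAs, chosen after seeing the data, moved no count by over 1.5 times. Depth limits the results most for single circRNAs, of which 239 of 365 had under 10 reads and were not called.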
